A study of Mus musculus with 2 samples.

Results

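The neighbours described here are the genes and transcripts around Onecut2 on mouse chromosome 18. They were all non-control probes placed by the scanner files within 10 Mb on either side of the start of the first Onecut2 probe, without Onecut2 and St8sia3 themselves. This gave 284 of 41174 probes, which stand for 235 of 33561 genes or transcripts (a named gene, or otherwise the transcript identifier of the file). Of the 284 probes, 141 lie on the lower-coordinate side, called upstream here because Onecut2 reads towards higher coordinates, and 143 lie downstream. The location was chosen by measured values, the high mutant over wild-type ratios of Onecut2 and St8sia3 on these same arrays. The ratios of the neighbours come from the same contrast, so they are given as a description and no test was made.

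The mutant group, Glis3KO, was pancreas of Glis3zf/zf mice at postnatal day 3 (P3), and its control, Glis3WT, was P3 wild-type pancreas. The labels do not explain the letters zf or name the strain and sex. RNA from 2 pups was pooled for each genotype, so each genotype is 1 sample of whole pancreas. The same pools were hybridised together on 2 Agilent whole mouse genome arrays, once with Glis3KO in Cy5 and once with Glis3KO in Cy3. The arrays share their RNA and are a technical dye swap, so their agreement measures labelling and scanning error and not the spread between animals.

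Onecut2 encodes a transcription factor with a cut domain and a homeodomain, of the family that also holds Onecut1, a regulator of pancreas and liver development. St8sia3 encodes a sialyltransferase that adds sialic acid to glycoproteins and glycolipids and is known mainly from brain. Genes that lie side by side can share regulatory elements or a chromatin domain, and they can also be controlled separately. Comparing each probe with its position therefore shows how far along the chromosome a difference between genotypes extends.

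Some facts of the whole series bear on what follows. Of all probes, 38864 were detected, that is, well above background in at least 1 genotype on both arrays. The median spot signal before normalisation was 208.2 for Glis3KO and 265.0 for Glis3WT on the array with Glis3KO in Cy5, and 209.7 for Glis3KO and 207 for Glis3WT on the other array, so raw signals are not compared directly between dyes. The Glis3 probe (NM_175459) had log2 ratios of -0.02 and 0.01, and no source here places it inside or outside the altered stretch, so it checks nothing about the labels. Islet endocrine markers were lower in Glis3KO for 14 of 14 detected genes, with a median log2 ratio of -1.75, and acinar markers were detected for 13 genes. Of these, 7 reached the scanner ceiling in every channel, so they show a bright signal and no difference. Among the other 6, Ctrl had the lowest mean, -1.11, and Gp2 the highest, 1.93. Between them lay Bhlha15 (-0.28), Cela1 (-0.22), Pnlip (0.20) and Ptf1a (0.52). Skeletal muscle markers had a median log2 ratio of 1.35 over 18 detected genes.

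Below, each ratio is the log2 of Glis3KO over Glis3WT after normalisation, first from the array with Glis3KO in Cy5 and then from the array with Glis3KO in Cy3. The error beside a mean is the distance of either array from it. Raw signals are mean spot intensities on the linear scanner scale before background correction, and a local background of about 50 is included in them. The genome build behind the file coordinates is not stated.

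Onecut2 and St8sia3 set the centre of the window. The Onecut2 probes (NM_194268, chr18:64618084-64618143 and chr18:64618104-64618163) had ratios of 1.91 and 1.76 for the first probe and 1.78 and 1.79 for the second. St8sia3 (NM_009182) had 2.18 and 2.01 on its highest probe, 115 kb upstream of the Onecut2 probe, and 0.37 and 0.37 on its lowest.

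The median ratio of the neighbours was close to 0. The 260 detected neighbour probes had a median log2 ratio of 0.0028, against -0.0034 for the 761 detected probes on the rest of chromosome 18 and 0.00076 for all detected probes. The median of the neighbours was 0.0023 on each array. The difference between neighbours and the rest of the chromosome was 0.0062, and it was 0.0085 and 0.0099 on the single arrays. A single neighbour probe had a technical spread of 0.072 (root mean square distance of an array from the probe's mean), which is the error of a probe and not of a median. The quartiles of the neighbours were -0.06 and 0.06, and 249 of the 260 lay within 0.3 of 0 on the log2 scale. That is 95.77%, close to the 96.45% on the rest of chromosome 18 and the 95.96% over all detected probes. With 1 probe per gene, the 93 detected neighbour genes had a median of -0.0053, against -0.013 for 276 genes on the rest of the chromosome.

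**Figure D1:**
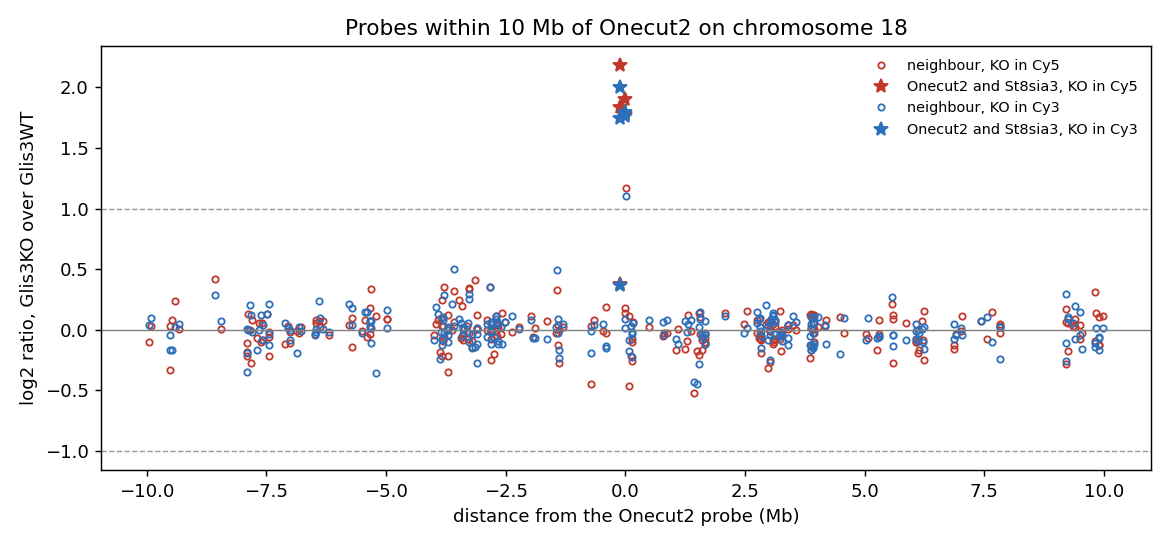
Log2 ratio of Glis3KO over Glis3WT for each detected neighbour probe (open circles) against its distance from the Onecut2 probe in Mb, with Onecut2 and St8sia3 as stars. Colours give the array and dashed lines mark a 2-fold difference. Apart from 1 neighbour probe 6.65 kb from Onecut2, no neighbour reached either dashed line.

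A 2-fold rule required a 2-fold mean difference, backed by 1.5-fold or more the same way in both dye orientations. It took 1 neighbour probe of 260, which was higher in Glis3KO, and no lower one. Over all detected probes the rule took 0.237%, with 0.142% higher and 0.0952% lower. On the rest of chromosome 18 it took 1 probe of 761, for Myot, a Z-disc protein of skeletal muscle 1.33 higher on the log2 scale. A looser rule required 1.3-fold on average and 1.2-fold the same way in both orientations. It took 4 neighbour probes (1.54%), against 13 on the rest of the chromosome (1.71%). Of the 4 neighbours, 3 were higher and 1 was lower in Glis3KO, while median centring in place of loess gave 1 higher and 2 lower. Over all detected probes the looser rule took 2.05%, with 0.774% higher and 1.27% lower, and 2.3% with median centring. Ratios were above 0 on both arrays for 79 neighbour probes (30.4%) and below 0 on both for 76 (29.2%). On the rest of chromosome 18 the shares were 25.8% above and 31.0% below, and over all detected probes 30.2% above and 30.4% below. The sides of the window differed, with 34.4% above and 22.7% below among 128 detected upstream probes, and 26.5% above and 35.6% below among 132 downstream ones. The medians were 0.0080 upstream and -0.0098 downstream. Whether these shares differ beyond chance was not tested.

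The neighbour past the 2-fold rule was AK081290, a cloned cDNA from adult corpus striatum whose product the file describes as an unknown EST. Its probe lies at chr18:64624738-64624798, 6.65 kb downstream of the first Onecut2 probe and in the same orientation as Onecut2. Raw signals were 155.3 and 193.9 in Glis3KO, against 97 and 85.9 in Glis3WT, with a local background of 50 and 47 for Glis3KO and 50 and 50 for Glis3WT. Glis3KO was the brighter channel on both arrays, and all 4 signals were below the median spot signal of their channel. Its log2 ratios were 1.17 and 1.11, with a mean of 1.14 ± 0.03, which is 2.20-fold. The size depended on how background was handled, since with an offset of 0 the ratios were 2.18 and 1.93 (4.16-fold), and the scanner software's own ratios were 2.36 and 2.07. The direction was the same in each of these. Whether the clone belongs to a longer Onecut2 transcript is not stated in the files and was not tested.

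The opposite-orientation probes beside it did not share that ratio. AK039416, a spinal cord clone 3.10 kb downstream of the Onecut2 probe with the opposite orientation, had 0.14 and 0.02. AK034311, a diencephalon clone 6.10 kb upstream and also in the opposite orientation, had 0.18 and 0.09. Both are dim, with raw signals between 97.2 and 142.1, and the offset of 50 shrinks their ratios. With an offset of 0, AK039416 had 0.24 and 0.03, and AK034311 had 0.34 and 0.17. The orientation is read from the order of the coordinates, which matched the RefSeq strand for 18287 of 18528 probes of named genes over the whole genome (98.7%). All 3 probes within 10 kb of Onecut2 were positive on both arrays, and only the same-orientation one passed either rule.

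**Figure D2:**
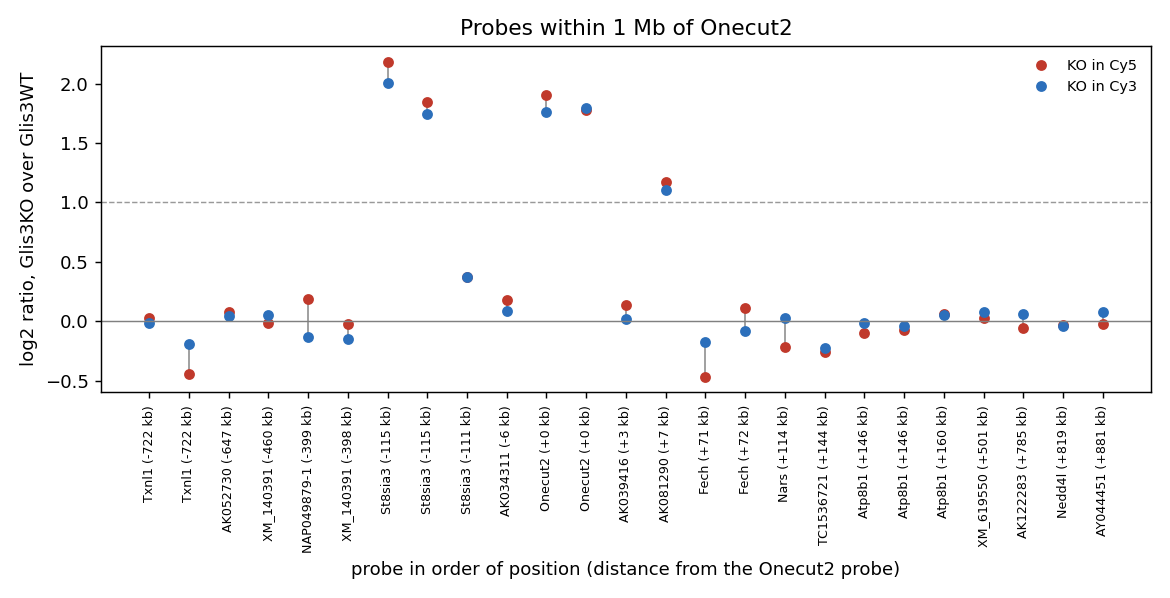
Log2 ratio of Glis3KO over Glis3WT for every detected probe within 1 Mb of the Onecut2 probe, in order of position and labelled with the distance in kb; the grey line joins the arrays and the dashed line marks 2-fold. St8sia3, Onecut2 and AK081290 stand above the other probes, which lie between -0.47 and 0.19 on each array.

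Within 1 Mb there were 20 neighbour probes, all detected, with a median log2 ratio of 0.013. In the RefSeq gene order, Wdr7 and then Txnl1 follow St8sia3 on the upstream side, and Fech, Nars, Atp8b1 and Nedd4l follow Onecut2 downstream. Wdr7, a WD-repeat protein linked to the vacuolar proton pump, is represented by 2 probes of its predicted transcript (XM_140391), with means of 0.02 and -0.09. Txnl1, a thioredoxin-like protein bound to the proteasome, gave raw signals of 1881 and 1873 in Glis3KO, against 3065 and 2452 in Glis3WT, on its brighter probe. That probe had ratios of -0.45 and -0.19, and its other probe, close by, had 0.03 and -0.01.

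Downstream the first gene is Fech, the ferrochelatase that completes heme synthesis. Its brighter probe, 71.2 kb from Onecut2, gave 433.6 and 435.1 in Glis3KO, against 732.9 and 522.5 in Glis3WT. The ratios were -0.47 and -0.17, with a mean of -0.32 ± 0.15, while the second Fech probe had 0.12 and -0.08. Both Fech and Txnl1 thus had 1 low probe and 1 probe near 0, and neither passed the looser rule. With median centring the low Txnl1 probe did pass, with a mean of -0.40. Nars, the asparaginyl-tRNA synthetase, had -0.21 and 0.03, which differ in sign between the arrays.

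Further downstream the ratios stayed small. Atp8b1, a phospholipid flippase, had 3 probes with means between -0.06 and 0.06. TC1536721, a sequence placed beside Atp8b1 in the file and described as similar to a splicing factor, had -0.26 and -0.22. Nedd4l, a ubiquitin ligase that regulates membrane channels, had -0.03 and -0.04 at 819 kb. Nedd4l and the brightest Atp8b1 probe are dim, with raw signals between 102.3 and 162.9, and the offset of 50 shrinks their ratios. With an offset of 0 the ratios were -0.05 and -0.09 for Nedd4l and 0.10 and 0.09 for that Atp8b1 probe. The nearest named genes, Wdr7 upstream and Fech downstream, did not share the high ratios of Onecut2 and St8sia3. Probes between Wdr7 and Fech were not all high, since AK034311 and AK039416 had means of 0.14 and 0.08.

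Read in 1 Mb steps, the medians of the neighbours stayed near 0 on both sides. Of 19 bins with probes, 17 held at least 5 detected probes, and their medians ran from a lowest of -0.09 to a highest of 0.04. The lowest, 6 to 7 Mb downstream, held 13 detected probes, of which 9 were below 0 on both arrays. Over all detected probes 30.4% were below 0 on both arrays, and this bin was picked as the lowest of the 17. Across the 260 probes the Spearman correlation between distance and the size of the ratio was 0.02, as a description over probes that share libraries. The looser rule took 4 of 160 detected probes within 5 Mb (2.5%) and 3 of 49 within 2 Mb (6.12%). Over all detected probes it took 2.05%. Within 2 Mb, 12 of the 49 probes were above and 20 below 0 on both arrays, against 30.2% and 30.4% over all detected probes. Whether these shares differ beyond chance was not tested. In 5 Mb bins, the 4 bins of neighbours had medians between -0.02 and 0.02, and the 14 bins of the rest of chromosome 18 had medians between -0.03 and 0.01.

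**Figure D3:**
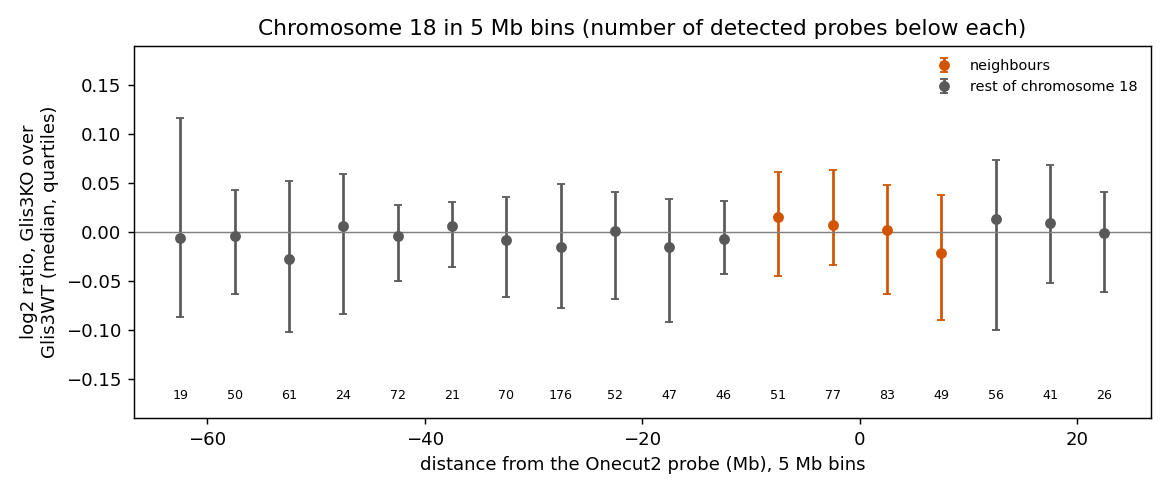
Median log2 ratio of Glis3KO over Glis3WT in 5 Mb bins of chromosome 18, placed by distance from the Onecut2 probe in Mb; bars span the quartiles and the numbers count detected probes. The 4 neighbour bins, with medians between -0.02 and 0.02, overlap the quartile range of every other bin.

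The edges of the window fell among ratios near 0. Just inside the upstream end, AK036466 and AK017062 had means of -0.03 and 0.07. Just outside it, 1 Csnk1g3 probe had a mean of 0.07 and the other had 0.06 on the array with Glis3KO in Cy5 and was left out as an outlier spot on the other array. At the downstream end, Mbd1 and AK016821 inside the window had -0.03 and 0.07, and AK007214 and Myo5b outside it had 0.15 and 0.06.

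Among the remaining neighbours, Sec11c had the lowest ratio. It encodes a catalytic subunit of the signal peptidase complex, which removes signal peptides from secreted proteins in the endoplasmic reticulum. Its probe (NM_025468, chr18:66046015-66048097, 1.43 Mb downstream) gave raw signals of 813.4 and 881.6 in Glis3KO, against 1409 and 1317 in Glis3WT. Glis3WT was the brighter channel on both arrays, and the ratios were -0.52 and -0.43, a mean of -0.47 ± 0.04, or 1.39-fold lower. Summed islet endocrine marker levels were 64349 and 52014 in Glis3KO, against 236734 and 217533 in Glis3WT, and their part in the Sec11c ratio was not tested. In whole pancreas, fewer cells of a type and less RNA per cell cannot be told apart.

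The next named genes downstream of Sec11c were also low. Grp, which encodes gastrin-releasing peptide, had -0.17 and -0.45, with raw signals of 152.4 and 120.5 in Glis3KO, against 219.4 and 151.8 in Glis3WT. Rax, a homeobox factor of the developing eye, had -0.21 and -0.29. AK053517, a clone whose probe lies beside that of Rax, had 0.14 and 0.02. Beyond Rax, Cplx4, a complexin, had -0.03 and 0.15, and Lman1, a cargo receptor between the endoplasmic reticulum and the Golgi, had -0.09 and -0.04. Neither Grp nor Rax passed the looser rule, though both did with the scanner software's ratios, whose means were -0.52 for Grp and -0.40 for Rax.

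The other neighbours past the looser rule lay upstream and were higher in Glis3KO. Cd74, the invariant chain that accompanies class II molecules of antigen-presenting cells (NM_010545, 3.58 Mb upstream), gave 477.3 and 451.8 in Glis3KO, against 473.5 and 338.0 in Glis3WT. Its normalised ratios were 0.32 and 0.50, a mean of 0.41 ± 0.09, or 1.33-fold. Both Cd74 and AB023957 lost this call with median centring in place of loess, with means of 0.37 for Cd74 and 0.38 for AB023957, and on the array with Glis3KO in Cy5 alone. AB023957 is the probe of a transcript 1.44 Mb upstream and had 0.33 and 0.50. The file describes the transcript of the nearby Apcdd1 probe (XM_619546) as cDNA sequence AB023957, and that probe, in the same orientation, had -0.02 and 0.02. Apcdd1 encodes a membrane inhibitor of Wnt signals. Csf1r, the colony stimulating factor receptor of macrophages, had 0.35 and 0.29 on one probe, 0.34 and 0.25 on its brightest probe and -0.07 and 0.06 on a further probe, and did not pass the rule. With an offset of 0 or the scanner software's ratios, the probe with 0.35 and 0.29 did pass, each time with a mean of 0.42. The lymphoid and class II marker list, which contains Cd74, was above 0 on both arrays for 7 of 8 detected genes. Its summed levels were 13454 and 12001 in Glis3KO, against 9789 and 10549.6 in Glis3WT. The macrophage list, which contains Csf1r, was above 0 on both arrays for 7 of 8, with sums of 26987 and 22389.8 in Glis3KO, against 16204 and 14154 in Glis3WT. Over the whole array with 1 probe per gene, 32.5% were above 0 on both arrays. The count and the sums of each list include the gene it is set beside. The part of these cells in the Cd74 and Csf1r ratios was not tested.

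Some unnamed transcripts came close to the looser rule. AK076264, a neonatal skin clone described as casein kinase I alpha, had 0.35 and 0.36, while the 3 Csnk1a1 probes further along had means between -0.10 and -0.01. NAP027859-1, described only as unknown, had 0.42 and 0.29. AK049810, a hippocampus clone with 2 probes, had 0.35 and 0.29 on the brighter and 0.03 and 0.11 on the other. Of the 31 named neighbour genes with several detected probes, 7 had probes that spanned more than 0.2 on the log2 scale, and Csf1r, Fech and Txnl1 spanned more than 0.3. The probes differed in the sign of their mean for 20 of the 31, and the median span was 0.08. AB023957 and Apcdd1 were not joined in this count.

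Ordered by role with 1 probe per gene, none of the 6 groups, with 74 detected genes, contained a gene past the 2-fold rule. Cd74 and Sec11c passed the looser one. Over the whole array with 1 probe per gene, the 2-fold rule took 0.382% and the looser rule 2.81%. Of the same genes, 32.5% were above and 30.5% below 0 on both arrays. The lists were drawn up with earlier results of these data known. Among receptors and signalling, the 21 detected genes had a median of 0.0074, with 6 above and 6 below 0 on both arrays. Grp and Csf1r were its extremes. Pdgfrb, the platelet-derived growth factor receptor of mesenchymal cells, had 0.03 and -0.02, and Smad4, the shared mediator of TGF-beta signals, had -0.18 and 0.11 on its brighter probe and 0.06 and 0.09 on the other. Pmaip1, the apoptosis inducer Noxa, had 0.14 and 0.11. Mc5r, a melanocortin receptor, had 0.12 and 0.11.

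Among immune and interferon genes, 6 were detected with a median of 0.02. Besides Cd74 and Csf1r they included Il17b, a cytokine, at 0.05 and 0.11, and Iigp1, an interferon-induced GTPase, at -0.04 and -0.08. Among transcription and chromatin genes, 16 were detected with a median of 0.03. Of these, 9 were above and 4 below 0 on both arrays, against 32.5% above and 30.5% below over the whole array. Mex3c, an RNA-binding ubiquitin ligase, was highest with 0.17 and 0.30 on its brighter probe, while its other probe had 0.07 and -0.11. Rax was lowest. Tcf4, a basic helix-loop-helix factor, had -0.03 and -0.05, and Cdx1, an intestinal homeobox factor, had 0.0045 and 0.01.

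The secretory pathway and traffic group lay lowest. Its 13 detected genes had a median of -0.09, with 8 below and 2 above 0 on both arrays, against a median of 0.0040 for 16513 genes over the whole array. Over the whole array, with 1 probe per gene, 30.5% were below and 32.5% above 0 on both arrays. Sec11c, Txnl1 and Gramd3 were the lowest, and Gramd3 had -0.11 and -0.35. Txnl1 is known as a proteasome-associated protein and not as a secretory one, and the list also holds Grpel2, a mitochondrial protein, at -0.05 and 0.06. Rab27b, a small GTPase that docks secretory granules, had -0.27 and -0.13. Dctn4, a dynactin subunit, had -0.22 and -0.08 on its brighter named probe and 0.10 and -0.02 on the other. AK003238, an unnamed clone described as dynactin 4 and not counted in the list, had -0.18 and -0.24. At the other end Pcyox1l had 0.11 and 0.09.

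The mitochondria and metabolism group had 12 detected genes with a median of 0.02. Fech was lowest and Impa2, an inositol monophosphatase, was highest with 0.05 and 0.20. Cidea, a lipid droplet protein of fat cells, had -0.32 and -0.08, and Me2, the mitochondrial malic enzyme, had 0.02 and 0.20. Rps14, a ribosomal protein, was saturated in Glis3WT on both arrays and in Glis3KO on 1, so its ratios of 0.00090 and 0.21 carry no direction. Among matrix, adhesion and cytoskeleton genes, the 10 detected had a median of -0.02. Tubb6, a beta tubulin, had -0.27 and -0.25, Ndst1, a heparan sulfate modifying enzyme, had -0.35 and -0.04 on its brightest probe and means of 0.06 and 0.02 on the others, and Fbn2, a fibrillin of elastic microfibrils, had 0.07 and 0.23. Outside the role lists, Ccdc68, a coiled-coil protein, had 0.21 and 0.27.

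**Figure D4:**
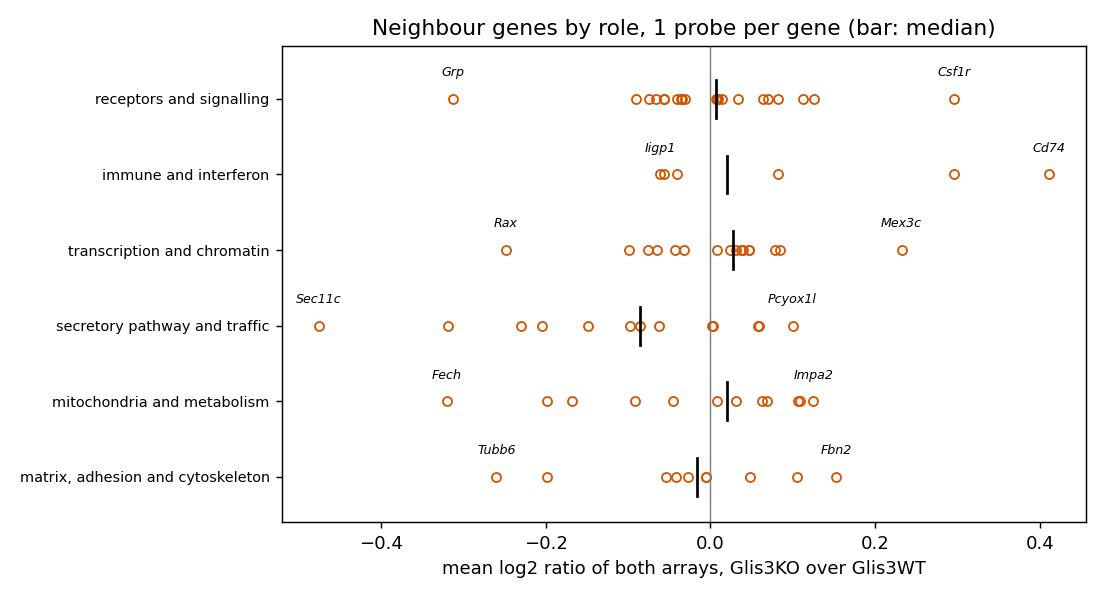
Mean log2 ratio of Glis3KO over Glis3WT for the 74 detected neighbour genes in the role lists, with 1 probe per gene and 4 genes shown in 2 lists; each circle is a gene, the bar is the group's median and the lowest and highest genes are named. The secretory pathway and traffic group has the lowest median, -0.09, and Sec11c (-0.47) and Cd74 (0.41) are the outermost genes.

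Successive probes did not form long stretches of one sign. The longest run above 0 on both arrays was 5 probes, starting at Ndst1, and the longest run below 0 was 5 probes, starting 6.07 Mb downstream. On the rest of chromosome 18 the longest runs were 4 above and 5 below. The 2 arrays correlated over the 260 neighbour probes with a Pearson r of 0.55, against 0.51 on the rest of the chromosome. Each of these sets includes its own probe past the 2-fold rule, AK081290 and Myot. Without AK081290 the r of the neighbours was 0.43, and the r of the rest without Myot was not computed. These values describe probes that share the same RNA pools. The 24 neighbour probes that were not detected had raw signals between 53.7 and 97.4 and mean ratios between -0.11 and 0.08.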

How the data were processed

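RNA of 2 pups per genotype was pooled and measured on 2 two-colour arrays with exchanged dyes. Per the labels, amplification started from 500 ng of total RNA, and hybridisation took 17 hours with 750 ng of cRNA per dye. Per the file headers, the deposited scanner files hold mean spot intensity and median background intensity of each channel, not normalised, and the scanner software's log10 ratio, Cy5 over Cy3. The submitters' processing notes name Agilent Feature Extraction 7.5, and the file headers give 8.5.1.1. The deposited series table holds log2 ratios that equal the software's mutant over wild-type ratio within 0.002 for 99.99% and 99.98% of probes, with a median of 0 in each column, which settled scale, centring and direction.

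From the mean and background intensities, ratios were computed with limma 3.58.1 in R 4.3.3 (normexp, offset 50; loess within array; control spots at weight 0). The offset shrinks the ratios of dim probes. Outlier spots (15 and 53) were left out, saturated spots were kept, spots of a probe were averaged, and every ratio was expressed as mutant over wild type. The steps were tested on simulated data. Tables and figures were made with Python 3.11.15, pandas 2.3.3 and matplotlib 3.10.9. Detected probes were well above background in at least 1 genotype on both arrays. With 1 sample per genotype there is no replicate check and no test or p-value, and precision is limited by having only these arrays. Of the 284 neighbour probes, 136 were named from RefSeq (96 genes; 126 probes by accession, 5 by symbol, 5 by older symbol) and 148 keep the file's identifier. RefSeq gave names, strand and gene order only, and no sequence is printed. Named genes were those within 1 Mb, those past either rule, the 10 highest and 10 lowest with 1 sign on both arrays, the window's edge probes and up to 4 per role list. Some other transcripts close to the looser rule, and probes that disagree with a named one, were chosen after their values were seen. Members and lists were chosen with earlier results of these data known. The alternatives were other background and dye corrections, single arrays, other filters, 1 probe per gene, narrower windows and the deposited table.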

Additional observations from a re-analysis of the deposited data

How the results depend on the processing

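The median of the neighbours stayed between -0.018 and 0.0072 and its difference to the rest of chromosome 18 between -0.015 and 0.013 over 12 alternatives, so both took either sign. The neighbours past the 2-fold rule numbered 1 under 10 alternatives, and 0 with 1 probe per gene, where AK081290, which has no gene name, is not counted, and 0 without AK081290, an alternative added after seeing the data. The looser rule took 9 with a normexp offset of 0 and 11 with the scanner software's ratio. It also took 11 with the deposited series table, which holds the software's ratios and is not a separate check. With 1 probe per gene it took 2, where fewer probes were counted. For the higher counts the cause was not tested. Over all detected probes the looser rule's share was then 3.73% with offset 0 and 4.42% with the software's ratio. Probes of one sign on both arrays numbered 55 with 1 probe per gene, 96 within 5 Mb and 32 within 2 Mb, where fewer probes were counted. Counts over both arrays have no value on a single array. The window held the same 284 probes when it was centred on the other Onecut2 probe. No paired analysis was possible because each genotype is 1 sample and the arrays carry the same RNA pools. AK081290, which is dim, kept its direction but has no settled size. Of the 260 detected neighbour probes, 105 had opposite signs on the 2 arrays. The same held for 329 of 761 on the rest of chromosome 18 and 15284 of all 38864 detected probes. Median centring gave 3 calls under the looser rule, keeping AK081290 and Sec11c, gaining Txnl1 and losing Cd74 and AB023957. The share was then 1.15% of the neighbours, 1.84% on the rest of chromosome 18 and 2.3% over all detected probes.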
